A study of Mus musculus with 2 samples.

Results

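Connexins and pannexins are 2 families of proteins that form large membrane channels. Connexins of neighbouring cells dock to build gap junctions, which carry current and small molecules from cell to cell and, between neurons, make electrical synapses. Pannexins are unrelated to connexins in sequence and mainly act as channels between the cytoplasm and the outside, with release of ATP as their best known role. In the retina, gap junctions couple cells of every neuronal class, and Cx36 (Gjd2) and Cx45 (Gjc1) are the best known connexins of ganglion cells. The genes described here are 4 connexin genes, Gjd2, Gjc1, Gja1 and Gja10, and 2 pannexin genes, Panx1 and Panx2. They are 6 of the 24015 gene symbols in the count files and were selected by symbol, with earlier results of these data known.

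RNA came from J-RGCs, a retinal ganglion cell type marked by Jam2, of mouse retina at postnatal day 6. A transgenic line labelled them with green fluorescent protein, and they were purified by magnetic beads followed by flow cytometry. The submitters describe the line as specific to J-RGCs, and no check of that was made beyond the markers below. The single group (P6_JRGC) held 2 libraries, A and B, from different litters, each pooling 5 to 6 animals; the sources used here give neither a strain nor any treatment. There was no second cell type, age or condition, so levels are compared between genes and between the libraries.

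The gene counts summed to 7916204 in library A and to 13744313 in library B. Counts were divided by this total and scaled to 1000000 (CPM), and a gene was called detected at 1 CPM or more in both libraries, which 46.8% of all gene symbols reached. A gene with no count could have been present at up to the level of 3 counts, which is 0.379 CPM for A and 0.218 CPM for B. All intervals on single counts are exact 95% Poisson intervals and, like this limit, cover counting error only, because amplified reads without molecular identifiers are not independent molecules. All 10 ganglion cell markers checked were detected, from 147 ± 59.0 CPM for Isl1 to 4815 ± 1800 CPM for Nefl (SD, n = 2), and Jam2 stood at 2344 CPM in A and 1203 CPM in B. Markers of other cells were also read. In these bulk pools a few cells with much RNA of a gene and many cells with little cannot be told apart.

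Gjd2 was the most abundant member in both libraries, in CPM and in CPM per exon length, and 4 of the 6 genes were detected: Gjd2, Panx2, Panx1 and Gjc1. Gja1 reached 1 CPM in A alone, and Gja10 had no count in either library. The median over the 6 genes, Gja10 included, was 4.03 on the log2(CPM + 0.5) scale. It was 0.83 over all gene symbols, 2.89 over the 16969 genes with a count in either library and 4.39 over detected genes. Because earlier results were known when the members were chosen, these differences may reflect that choice.

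**Figure D1:**
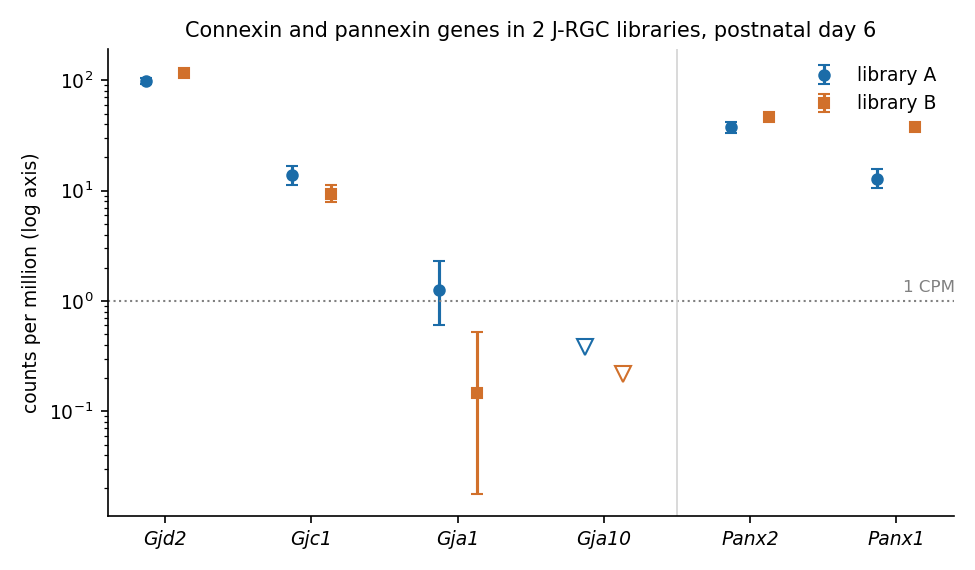
Levels in CPM (log axis) of the 4 connexin and 2 pannexin genes in library A (circles) and library B (squares), with exact 95% Poisson intervals for counting error, and open triangles at the level of 3 counts where no read was counted. Gjd2 was highest at 98.9 and 117 CPM, Gja1 fell below 1 CPM (dotted line) in B, and Panx1 was the detected member whose libraries lay farthest apart.

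Gjd2 encodes Cx36, the main connexin of electrical synapses between neurons. It had 783 counts in A, or 98.9 CPM with an interval of 92.1 to 106, and 1609 counts in B, or 117 CPM with an interval of 111 to 123. Both libraries were thus high and close to each other, with a mean of 108 ± 12.8 CPM (SD, n = 2). Corrected for its 2879 bases of summed exon length, Gjd2 stood at 34.4 CPM per kb in A and 40.7 in B, which ranked 831 among the 16133 genes with a count and a known length. An annotated gene on the opposite strand, A530058N18Rik, shares 57 exon bases with Gjd2 and stood at 17.3 CPM in A and 20.9 CPM in B. No source used here says whether counting used strand, so reads in the shared bases cannot be assigned to either gene.

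Gjc1 encodes Cx45, a connexin of several retinal neurons as well as of heart and vessel walls. It had 109 counts in A, or 13.8 CPM with an interval of 11.3 to 16.6, and 129 counts in B, or 9.39 CPM with an interval of 7.84 to 11.2. Gjc1 was thus low but counted in both libraries, at a mean of 11.6 ± 3.10 CPM (SD, n = 2). Per kb of its 5003 exon bases it stood at 2.75 CPM in A and 1.88 in B, below the median of 4.76 CPM per kb over detected genes.

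Gja1 encodes Cx43, the main connexin of astrocytes, which also occurs in Müller glia, pigment epithelium, vessel walls and dividing progenitors. It had 10 counts in A, or 1.26 CPM with an interval of 0.606 to 2.32, and 2 counts in B, or 0.146 CPM with an interval of 0.0176 to 0.526. The gene was at the edge of detection in A and under it in B.

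The glial genes that usually accompany Gja1 were uneven. Of 6 astrocyte markers 1 was detected, Aldoc at 36.7 ± 12.1 CPM, and the list summed to 51.0 CPM in A and 30.2 CPM in B. Gfap stood at 0 CPM in A and 1.09 CPM in B, and Pax2 at 0 and 0.291 CPM. Of 7 Müller glia markers 5 were detected, led by Dkk3 at 270 ± 66.4 CPM, and the list summed to 519 CPM in A and 444 CPM in B. Rlbp1 stood at 0 CPM in A and 1.60 CPM in B. Aqp4, on both glial lists, stood at 4.93 CPM in A and 0 CPM in B, and the glutamate transporter Slc1a3 at 11.1 and 3.06 CPM. Clu, on the Müller glia list, stood at 23.0 and 48.9 CPM and Glul at 87.0 and 129 CPM. Of the 7 Müller glia markers 2 were called higher in A (Aqp4 and Slc1a3) and 2 higher in B (Rlbp1 and Clu), by the test between the libraries given further on. With TMM or DESeq2 scaling Vim joined those higher in A, and Clu was no longer called. Of the 5 pigment epithelium markers 1 was detected, Tyr at 2.07 ± 0.780 CPM, and Rpe65 had no count. The part of other cells in the Gja1 reads was not tested.

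Gja10 encodes Cx57, a connexin of horizontal cells. It had 0 counts in both libraries, so the limits of 0.379 and 0.218 CPM apply. Of 5 horizontal cell markers 4 were detected, none of them at 10 CPM or more in both libraries, and the list summed to 22.5 CPM in A and 42.5 CPM in B. Sept4 had the highest mean at 9.98 ± 2.86 CPM, and Lhx1 had no count in either library. Onecut1, at 2.40 CPM in A and 13.2 CPM in B, and Calb1, at 4.17 and 11.4 CPM, were called higher in B. With TMM or DESeq2 scaling Calb1 was no longer called. Whether horizontal cells were present in the sort was not tested.

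Panx2 encodes a pannexin known mainly from the nervous system. It had 299 counts in A, or 37.8 CPM with an interval of 33.6 to 42.3, and 635 counts in B, or 46.2 CPM with an interval of 42.7 to 49.9. Like those of Gjd2, the Panx2 levels of the libraries were close, with a mean of 42.0 ± 5.96 CPM (SD, n = 2). Per kb of its 3599 exon bases it stood at 10.5 CPM in A and 12.8 in B, next below Gjd2 among the members in each library.

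Panx1 encodes the ATP-releasing pannexin found in many tissues, including ganglion cells. It had 102 counts in A, or 12.9 CPM with an interval of 10.5 to 15.6, and 518 counts in B, or 37.7 CPM with an interval of 34.5 to 41.1. Panx1 was thus low in A and high in B. Its intervals did not overlap, but neither did those of Gjd2, Panx2, Gjc1 and Gja1, so this does not set Panx1 apart. The Panx1 SD of 17.5 CPM on a mean of 25.3 CPM (n = 2) was the widest among the detected members. Per kb of its 6030 exon bases it stood at 2.14 CPM in A and 6.25 in B, on either side of the median over detected genes.

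Levels of different genes were compared per kb of exon, for all 15 pairs of members. For the 10 pairs without Gja10, a 95% interval of the ratio of mean levels combined counting error with the spread between the 2 libraries, which edgeR's trended dispersion estimates for genes of that level. In 9 of the 10 the interval excluded 1, and in 7 it still did when its level was adjusted for 15 pairs.

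Gjd2 exceeded Gjc1, the other detected connexin of the set, 16.2-fold with a 95% interval of 5.98 to 43.9. The ratio was 12.5 in A and 21.7 in B. Over Panx1 it was 8.94-fold (interval 3.66 to 21.9), with 16.1 in A and 6.51 in B. Gjd2 thus lay far above both genes in each library.

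Neighbours in the order were less well separated. Gjd2 exceeded Panx2 3.22-fold with an interval of 1.36 to 7.63, and the ratio was nearly the same in A (3.27) and B (3.17), but adjusted for 15 pairs the interval of 0.882 to 11.7 held 1. Panx2 exceeded Panx1 2.78-fold with an interval of 1.13 to 6.86. That ratio was 4.91 in A and 2.05 in B, its adjusted interval of 0.721 to 10.7 held 1, and with coding length in place of exon length its log2 value fell from 1.48 to 0.06. The size of this ratio therefore depends on the lengths used. Panx1 and Gjc1 were not separated, with a ratio of 1.81 and an interval of 0.647 to 5.08, and their order differed between the libraries, at 0.776 in A and 3.33 in B. Panx2 exceeded Gjc1 5.04-fold (interval 1.85 to 13.8), with ratios of 3.81 and 6.84. With coding length, the log2 ratio of Panx2 to Gjc1 was 1.08 in place of 2.33 and its interval of -0.36 to 2.53 held 0.

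All 4 ratios to Gja1 were large, from 33.7 for Gjc1 (interval 10.2 to 111) to 546 for Gjd2 (interval 186 to 1603). They rest on 12 counts of Gja1 in all. With no filter on low counts in the dispersion fit, the log2 interval for Gjd2 was 6.31 to 11.9 in place of 7.54 to 10.6. That for Gjc1 was 2.18 to 7.97 in place of 3.35 to 6.79. The Gjd2 ratio was 279 in A and 2866 in B, so the libraries differed by more than the interval of 186 to 1603 covers. Against Gja10, taken at 3 counts per library, Gjd2 was 195-fold higher in A and 402-fold higher in B. Gjc1 was 15.7-fold and 18.5-fold higher than Gja10 so taken, and Panx1 12.2-fold and 61.7-fold. These ratios to Gja10 are not strict lower bounds, since they leave out the counting error of the other gene and the spread between libraries. The exact Poisson interval for Gja10 also reaches 0.466 CPM in A and 0.268 CPM in B, above the level of 3 counts. No ratio of Gja1 to Gja10 is given, since Gja1 per kb lay below the limit for Gja10 in both libraries.

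**Figure D2:**
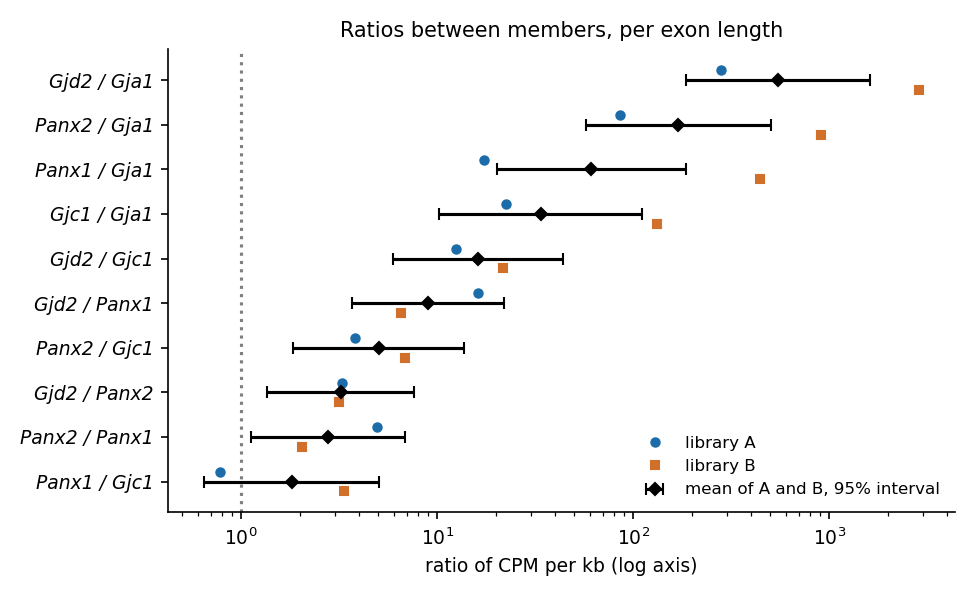
Ratios between pairs of members in CPM per kb of exon (log axis), as the ratio of the means of A and B with its 95% interval (black) and in each library (circles A, squares B). The interval for Panx1 over Gjc1 held 1, and in library B all 4 ratios to Gja1 lay above their intervals.

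Most of the wider family was not detected. Of the 23 mouse connexin and pannexin genes in the files, 5 passed 1 CPM in both libraries, beside 46.8% of all gene symbols. At 0 counts in both were 12, and the family median was 0 CPM. Among the 17 that are not members, 11 had no count, 3 had fewer than 10 counts over both libraries and 3 had 10 or more. Among those without a count were Gja3, Gja5, Gja6, Gjb2, Gjb5, Gjb6, Gjd3, Gjd4 and Panx3. They include Gjb6, another astrocyte connexin gene, and Gjd3, whose product has been described in retinal ganglion cells. Gjc3 stood at 0.884 CPM in A and 1.24 CPM in B, and Gje1 at 0.758 and 0.291 CPM.

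Gja4 alone among these other genes was detected, and with TMM or DESeq2 scaling Gjc3 was too. It encodes Cx37, a connexin of blood vessel walls. It had 242 counts in A, or 30.6 CPM with an interval of 26.8 to 34.7, and 58 counts in B, or 4.22 CPM with an interval of 3.20 to 5.46. Gja4 was high in A and low in B, and the intervals did not overlap. Per kb, it stood at 18.1 CPM in A, between Gjd2 and Panx2, and at 2.50 CPM in B, between Panx1 and Gjc1.

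**Figure D3:**
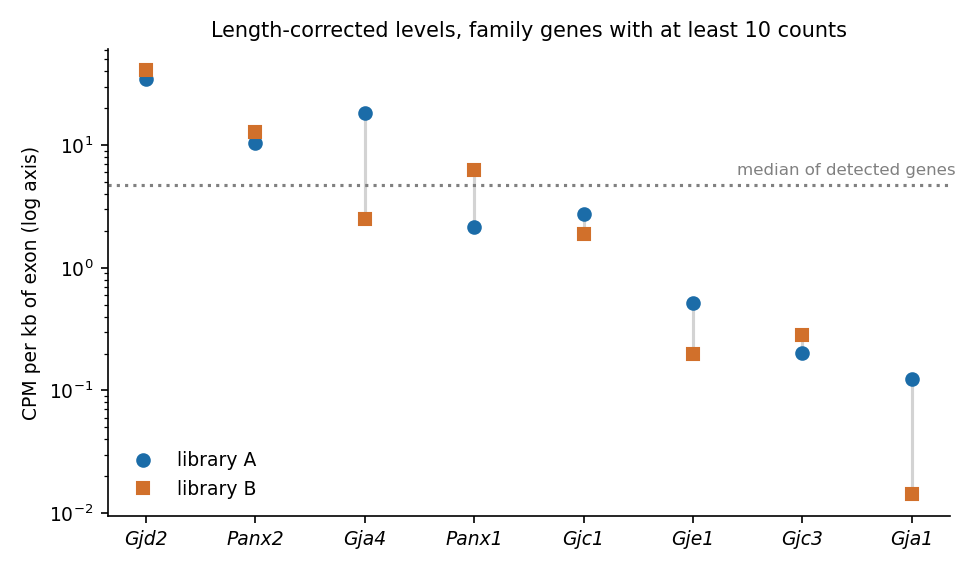
CPM per kb of summed exon length (log axis) in library A (circles) and library B (squares) for the 8 family genes with 10 or more counts over both libraries, ordered by mean. Gjd2 and Panx2 lay above the median of detected genes (dotted line, 4.76) in both libraries, Gja4 and Panx1 on either side of it, and Gjc1 below it.

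Gjd2 took most of the connexin reads in both libraries. In A it held 67.6% of the 1158 counts of the 20 connexin genes (exact 95% binomial interval 64.8% to 70.3%), followed by Gja4 with 20.9% (18.6% to 23.4%) and Gjc1 with 9.41% (7.79% to 11.2%). In B it held 88.1% of 1827 counts (86.5% to 89.5%), Gjc1 held 7.06% (5.93% to 8.33%) and Gja4 3.17% (2.42% to 4.08%). The share of Gja4 therefore separated the libraries more than that of Gjc1. Per kb, the Gjd2 share was 61.2% in A and 89.0% in B.

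**Figure D4:**
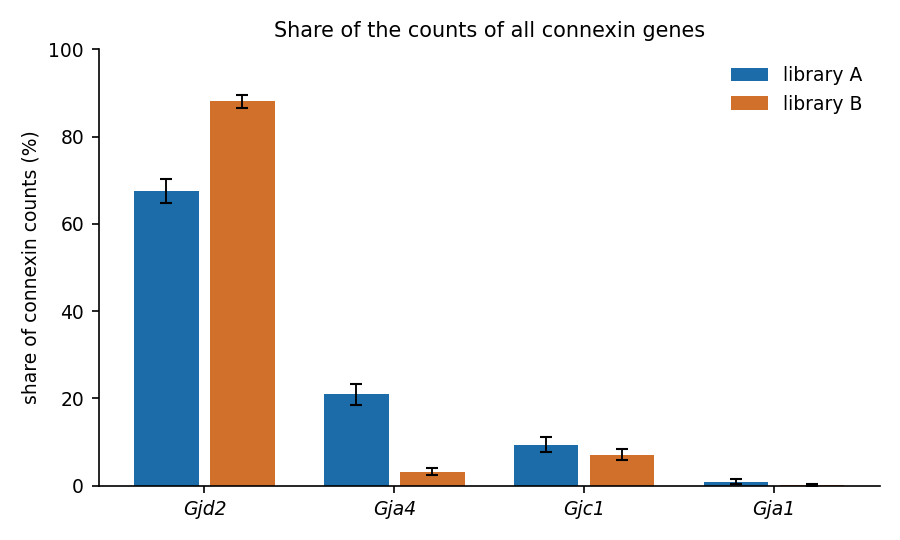
Share of the counts of all 20 connexin genes (percent) held by Gjd2, Gja4, Gjc1 and Gja1 in library A and library B, with exact 95% binomial intervals for counting error. Gjd2 held 67.6% in A and 88.1% in B, and Gja4 20.9% in A and 3.17% in B.

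Each gene was next compared between the libraries with an exact two-sided binomial test and Benjamini-Hochberg adjustment over all 14107 genes with 10 or more counts, and called at an adjusted p under 0.05 and a 2-fold difference. This compares 2 separately amplified libraries, not conditions. Its p-values measure counting error only and not the spread between libraries, for which the fit gave a biological coefficient of variation of 0.507. Of the tested genes 42.6% were called, 32.3% higher in B and 10.3% higher in A. Of the 5 members tested 2 were called, Panx1 and Gja1, a share near that background. Gja1 had 2 counts in B and reached the 10-count limit through A. Scaling by edgeR's TMM factors moved the log2 differences towards A, by -0.39 before the pseudocount, and DESeq2 size factors by -0.48. For genes near 0 the pseudocount makes the shift smaller. The calls over all genes were 75.7% higher in B with the gene total, 60.1% with TMM and 56.5% with DESeq2.

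Panx1 was higher in B, 2.92-fold with a counting interval of 2.36 to 3.65 (adjusted p = 2.51e-27 by the exact binomial test with Benjamini-Hochberg adjustment). Its log2 difference, B minus A, was 1.51 with the gene total, 1.13 with TMM and 1.05 with DESeq2, so the call stood under each scaling. Gja1 was higher in A, 8.68-fold with a counting interval of 1.85 to 81.5 on its 12 counts (adjusted p = 0.00376 by the same exact test). Its log2 difference was -1.45, and -1.63 with TMM. Gja1 was tested only because of its counts in A, so its call adds nothing to the share of members called.

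The other 3 tested members each had an adjusted p under 0.05 by the same binomial test, but lay within 2-fold and were not called. Such p-values were common. With no fold limit, 2938 of the 14107 tested genes were higher in A and 8036 higher in B. Gjc1 was lower in B, with a log2 difference of -0.53, or -0.90 with TMM and -0.99 with DESeq2. Gjd2 and Panx2 had log2 differences of 0.24 and 0.29, which turned to -0.15 and -0.10 with TMM. Which library held more of them thus depends on the scaling. Gja10 had no counts to compare.

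Outside the members, Gja4 was 7.24-fold higher in A with a counting interval of 5.42 to 9.82 (adjusted p = 9.94e-54 by the exact binomial test with Benjamini-Hochberg adjustment), a log2 difference of -2.72, or -3.08 with TMM. Of 8 endothelial and mural cell markers 5 were detected, and the list summed to 418 CPM in A and 130 CPM in B. Among mural genes Pdgfrb (51.9 and 10.3 CPM), Kcnj8 (9.98 and 2.76 CPM) and Rgs5 (342 and 82.4 CPM) were called higher in A, as Gja4 was, whereas Cspg4 stood at 11.1 and 14.5 CPM. The endothelial genes Cdh5 (0.884 and 8.66 CPM), Tek (1.64 and 8.22 CPM) and Pecam1 (0.632 and 2.91 CPM) were called higher in B, and Cldn5 stood at 0 and 0.0728 CPM. These 6 calls and that of Gja4 were also made with TMM and DESeq2 scaling. The part of vessel cells in the Gja4 reads was not tested.

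**Figure D5:**
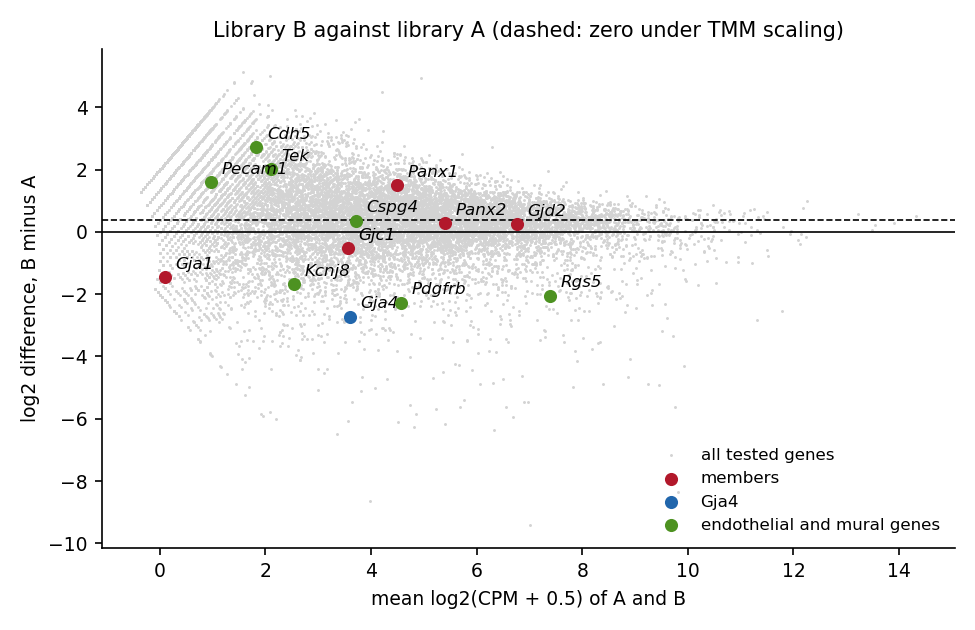
Log2 difference of library B minus library A against the mean log2(CPM + 0.5) for all 14107 tested genes (grey), the 5 tested members (red), Gja4 (blue) and the 7 tested endothelial and mural cell markers (green), of which 3 were called higher in A and 3 higher in B. Panx1 lay above and Gja1 and Gja4 below both zero lines (solid for the gene total, dashed for TMM, before the pseudocount), and Gjd2 and Panx2 lay between the 2 lines.

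Genes for proteins that scaffold or regulate gap junctions were mostly detected. Of the 15 in the files 13 were detected, beside 46.8% of all gene symbols, with a median of 88.9 CPM. Of the 14 tested 1 was called between the libraries, beside 42.6% of all tested genes. It was Cgn (cingulin, a tight junction protein), at 0.758 CPM in A and 5.82 CPM in B. The share over all tested genes was not matched for level, and 10 of the 15 genes stood above 10 CPM in both libraries. The low share called is therefore no result about these genes. With DESeq2 scaling Cnst, at 39.2 and 26.8 CPM, was also called, as higher in A. Nedd4, a ubiquitin ligase, had the highest CPM at 1511 ± 229 CPM. The calcium-dependent kinase genes Camk2d and Camk2b, whose enzyme phosphorylates Cx36, stood at 644 ± 186 and 182 ± 20.7 CPM. Nbea (neurobeachin), which electrical synapses need to form, stood at 604 ± 26.3 CPM. Tjp1 (ZO-1), the scaffold protein that binds Cx36, stood at 103 CPM in A and 194 CPM in B. None of these 5 genes was called between the libraries.

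Partners of pannexin channels, the receptors and enzymes for extracellular ATP and its products, were detected in 8 of 19 cases, beside 46.8% of all gene symbols. Their median was 1.93 CPM over both libraries, with 0.379 CPM in A and 2.98 CPM in B. Adora1, an adenosine receptor gene, had the highest CPM at 98.6 ± 18.6 CPM, followed by P2ry12 at 85.3 ± 0.0869 CPM. Entpd1, an ATP-degrading enzyme gene, stood at 11.7 CPM in A and 42.9 CPM in B. P2rx7, for the ATP receptor most often linked to Panx1, stood at 5.85 ± 1.30 CPM, and P2ry2 had no count.

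Of the 15 partner genes tested 9 were called higher in B and 0 higher in A, beside 32.3% and 10.3% of all genes. Among them were Entpd1, Entpd2, Entpd3, Nt5e, P2rx2, P2rx4, P2ry1 and Adora2a, and of these each but Entpd1 stood below 1 CPM in A. Those below 1 CPM had at most 7 counts in A and passed the 10-count limit through B. They were tested only because of their B counts, so the excess over all genes is no result about the partner genes. With TMM scaling 6 were called and with DESeq2 5, beside 37.2% and 37.1% of all tested genes in either direction. P2ry12 and Entpd1 are also known from microglia. The 6 microglia markers, P2ry12 among them, summed to 268 CPM in A and 331 CPM in B, 5 of them were detected, and 1 was called higher in B, Aif1 at 0.379 and 3.86 CPM. Their part in the partner and Panx1 values was not tested.

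Of 10 other large-pore channel genes 5 were detected, beside 46.8% of all gene symbols. Of the 8 tested 1 was called higher in A and 2 higher in B, beside 10.3% and 32.3% of all tested genes. The volume-regulated anion channel genes Lrrc8a (129 ± 22.6 CPM), Lrrc8b (101 ± 20.1 CPM), Lrrc8d (83.5 ± 17.3 CPM) and Lrrc8c (48.8 ± 12.2 CPM) led, and none of these 4 was called between the libraries. Calhm1 and Fam26d of the calcium homeostasis modulator family had no count. Calhm2 was called higher in A (2.65 and 0.364 CPM), and Fam26e (0.884 and 4.37 CPM) and Fam26f (0 and 0.800 CPM) were called higher in B. Each of these called genes had fewer than 10 counts in its lower library and passed the 10-count limit through the other. The shares called are therefore no result about the channel genes. With TMM scaling, Lrrc8e (2.40 and 1.09 CPM) joined those higher in A and Fam26f was no longer called.

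Other retinal neurons that use these connexins were checked by their own genes. Of 7 amacrine cell markers 3 were detected, led by Tfap2b at 36.6 ± 7.97 CPM, and the list summed to 67.5 (A) and 51.1 CPM (B). Of 6 bipolar cell markers 2 were detected, and the list summed to 120 CPM in A and 28.2 CPM in B, of which Grm6 alone made up 96.4 and 0.582 CPM. Of 8 photoreceptor markers 5 were detected, with sums of 40.8 and 30.5 CPM. All 4 cycling cell markers were detected, with sums of 166 and 79.4 CPM, of which Mki67 made up 116 and 41.8 CPM. The part of these cells in the Gjd2 and Gjc1 reads was not tested.

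With 2 libraries, likeness between genes can be measured only as distance in the plane of the A and B levels, on the log2(CPM + 0.5) scale. Among 114 genes of the lists outside the family, the nearest to Gjd2 were Lrrc8b (distance 0.18), Adora1 (0.22) and Glul (0.23). The nearest to Panx1 was Entpd1 (0.23), followed by Clu (0.89) and Otx2 (1.10). Cx3cr1 (0.47), Tfap2b (0.59) and Lrrc8c (0.63) were nearest to Panx2, and Ccna2 (0.65) and P2rx3 (0.65) were among the 3 nearest to Gjc1. Such nearness is common: over all genes, 81 lay as near to Gjd2 as Lrrc8b and 58 as near to Panx1 as Entpd1, these included.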

How the data were processed

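Single-end RNA-seq was measured in 2 libraries of sorted J-RGCs. The authors deposited raw read counts per gene symbol, made on the mm9 build with HTSeq 0.6.1, Trimmomatic 0.32 and TopHat2 2.0.10, per the submitters' processing notes; no source used here gives settings, annotation or strand. Gene counts made up 26.8% (A) and 30.9% (B) of all reads listed, and the summary lines were left out. No coordinates are reported, because the reference used (GENCODE M21) is on another build. It gave only lengths, matched by symbol for 16133 of 16969 genes with a count, and overlaps. Exon lengths summed over all transcripts may differ from the authors' gene models.

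Log2 values used a pseudocount of 0.5. Dispersion came from an intercept-only edgeR 4.0.16 fit (R 4.3.3) on 11272 filtered genes, with a biological coefficient of variation of 0.507. DESeq2 1.42.0 gave alternative size factors. Binomial tests used scipy 1.17.1, and a call needed 2-fold on the log2 scale with pseudocount. The scripts were tested on simulated data. The members and lists were chosen with earlier results of these data known. Named were all members, other family genes with 10 or more counts, the 4 highest detected genes of each partner list, each partner gene called between libraries, and each marker list's highest gene and genes at 0; Tjp1, P2rx7, Cnst, Lrrc8e and further markers were named after their values were seen. Some genes that these rules name are not reported here. Afdn (counted as Mllt4) and Calhm3 to Calhm6 were not in the files by these symbols.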

Additional observations from a re-analysis of the deposited data

How the results depend on the processing

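The number of members detected was 4 under each scaling and with 10 counts in both libraries as the rule, and 4 to 5 with 1 library left out. The members called between the libraries were 2 under each scaling and with all genes with a count, and 5 with no fold limit. Over all genes, 1458 were higher in A and 4550 in B, against 2278 and 2960 with DESeq2 size factors and 2938 and 8036 with no fold limit. The direction of Gjd2 turned with TMM (-0.15) and DESeq2 (-0.23), as did that of Panx2 (-0.10 and -0.18). Ratio intervals excluding 1 numbered 9, against 7 with coding length, 8 with no length correction and 7 without either library, where the interval is wider by construction. Panx1 over Gjc1 was -0.37 on the log2 scale without library B and 1.74 without library A, against 0.86 with both. Without library A or B, the log2 ratio of Gjd2 to Panx2 was 1.66 or 1.71, and its interval held 0. That of Panx2 to Panx1 was 0.73 with no length correction and 1.04 without library A, and that of Panx2 to Gjc1 was 1.93 without library B, and these intervals held 0 too. Pannexin partner genes detected ranged from 8 to 14 with 1 library left out, with 14 in B alone; the cause was not tested. With 2 libraries of 1 group, no test of a condition was possible. Levels that rest on fewer than 10 counts, that of Gja1 in B among them, have wide counting intervals.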
